A study of Mus musculus with 12 samples.

Results

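Müller glia are the radial glial cells that span the retina from the photoreceptors to the vitreous. They buffer potassium and water around neurons, take up glutamate and supply cone photoreceptors with recycled retinoid, and after injury they become reactive and change this program. A set of 9 genes by which these cells are commonly recognised, *Sox9*, *Rlbp1*, *Car14*, *Aqp4*, *Kcnj10*, *Abca8a*, *Dkk3*, *Apoe* and *Clu*, was followed here through bulk RNA-seq of mouse retina. The 9 genes were taken by exact gene name from a table of 55487 genes, and all 9 passed the filter on low values. Beside them 17 further genes known in Müller glia were followed, and all 17 were above the filter. In the uninjured WT libraries *Glul* (glutamine synthetase) was at 214.4 and 215.19 FPKM and *Vim* (vimentin) at 338.96 and 367.97 FPKM. The filter asks only for a group mean above 1 FPKM somewhere among 6 groups, which 16471 genes had, so passing it does not check the label. In GRCm38 (annotation GENCODE M21) the 9 protein-coding genes lie at these positions: *Rlbp1* at chr7:79374870-79387048, *Aqp4* at chr18:15389496-15410982, *Kcnj10* at chr1:172341210-172374085, *Sox9* at chr11:112782224-112787760, *Car14* at chr3:95897768-95904691, *Dkk3* at chr7:112116017-112159057, *Abca8a* at chr11:110025634-110095978, *Apoe* at chr7:19696109-19699188, *Clu* at chr14:65968483-65981547. None of the 9 is known from Müller glia alone.

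The 12 libraries form 6 groups of 2. Retinas of WT mice (C57BL/6J, or B6J), of WT mice given an AAV2.7m8 vector with a pU6-sh*Pax6*-GFP cassette (sh*Pax6*) and of *Jnk3*-/- mice (JNK3 KO) each received an intravitreal injection of 1 μL of PBS or of 1 μL of 40 mM NMDA, that is 40 nmol. NMDA overactivates glutamate receptors and can kill retinal ganglion cells (RGCs) and amacrine cells. In its NMDA-injected WT retinas the paper reported apoptosis mainly in RGCs, and little or none in amacrine cells. RNA of more than 3 retinas was pooled for a library, and the sources used here give an age, 2 months, only for the sh*Pax6* mice. The U6 promoter drives the hairpin in any infected cell, and the JNK3 KO is a deletion throughout the body. The vector was given by an eye injection of its own, which the paper calls intravitreal in some places and subretinal in others. No library of retinas with the shScramble vector is among the 12, so vector injection, infection and knockdown cannot be told apart. The paper calls the RNA-seq replicates of its WT and sh*Pax6* groups biological. Nothing further ties the 2 libraries of a group to separate animals or experiments. The p-values therefore measure the spread between libraries, which may be technical.

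Values are FPKM (fragments scaled by transcript length and by mapped fragments), from which the depth of a library cannot be read. Libraries of the same group differed by 0.11 to 0.25 on the log2 scale at the median gene. The FPKM of all genes added up to 541210 to 576922 in 10 libraries and to 805627 and 820180 in both WT NMDA libraries, which therefore stood apart. *Pax6* was at 173.48 and 177.3 FPKM under WT PBS and 94.56 and 92.84 under sh*Pax6* PBS, and *Mapk10*, which encodes JNK3, was at 42.79 and 50.72 under WT PBS and 9.47 and 8.75 under JNK3 KO PBS. After NMDA the WT libraries were below these knockdown and knockout levels or close to them, with *Pax6* at 55.42 and 53.81 and *Mapk10* at 8.98 and 6.0 FPKM. Calls were made where p, adjusted after Benjamini and Hochberg, was under 0.05 in a limma fit of log2(FPKM + 0.1) over 16471 genes, and every log2 difference below is on that scale. Whether the libraries of 2 groups overlapped is given below only as a description. The share of all genes without such overlap was not counted.

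In uninjured WT retinas the 9 genes covered a wide range of levels, which FPKM make comparable per length. *Clu*, which encodes clusterin, a secreted chaperone of lipoprotein particles, was the highest at 548.37 and 582.44 FPKM. *Apoe*, the main lipid carrier secreted by glia, followed at 219.48 and 226.46 FPKM and *Dkk3*, a secreted protein of the dickkopf family, at 224.94 and 220.31. The ranges of *Apoe* and *Dkk3* overlapped, and no other neighbours in the order did. *Rlbp1*, which encodes the retinaldehyde-binding protein CRALBP, averaged 50.4 ± 1.85 FPKM (SD, n = 2). *Abca8a*, a transporter of the ATP-binding cassette A subfamily, averaged 38.7 ± 4.6 FPKM. The water channel *Aqp4* averaged 22.3 ± 0.948 FPKM and the inward rectifier potassium channel *Kcnj10* (Kir4.1) 15.9 ± 0.898. *Car14*, a membrane-bound carbonic anhydrase, averaged 14.2 ± 1.22 FPKM. The transcription factor *Sox9* was the lowest at 5.16 and 4.49 FPKM. After sh*Pax6* or NMDA this order was not kept: *Apoe* was the highest of the 9 in the sh*Pax6* PBS and NMDA libraries, and *Aqp4* was the lowest in the WT NMDA libraries.

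**Figure D1:**
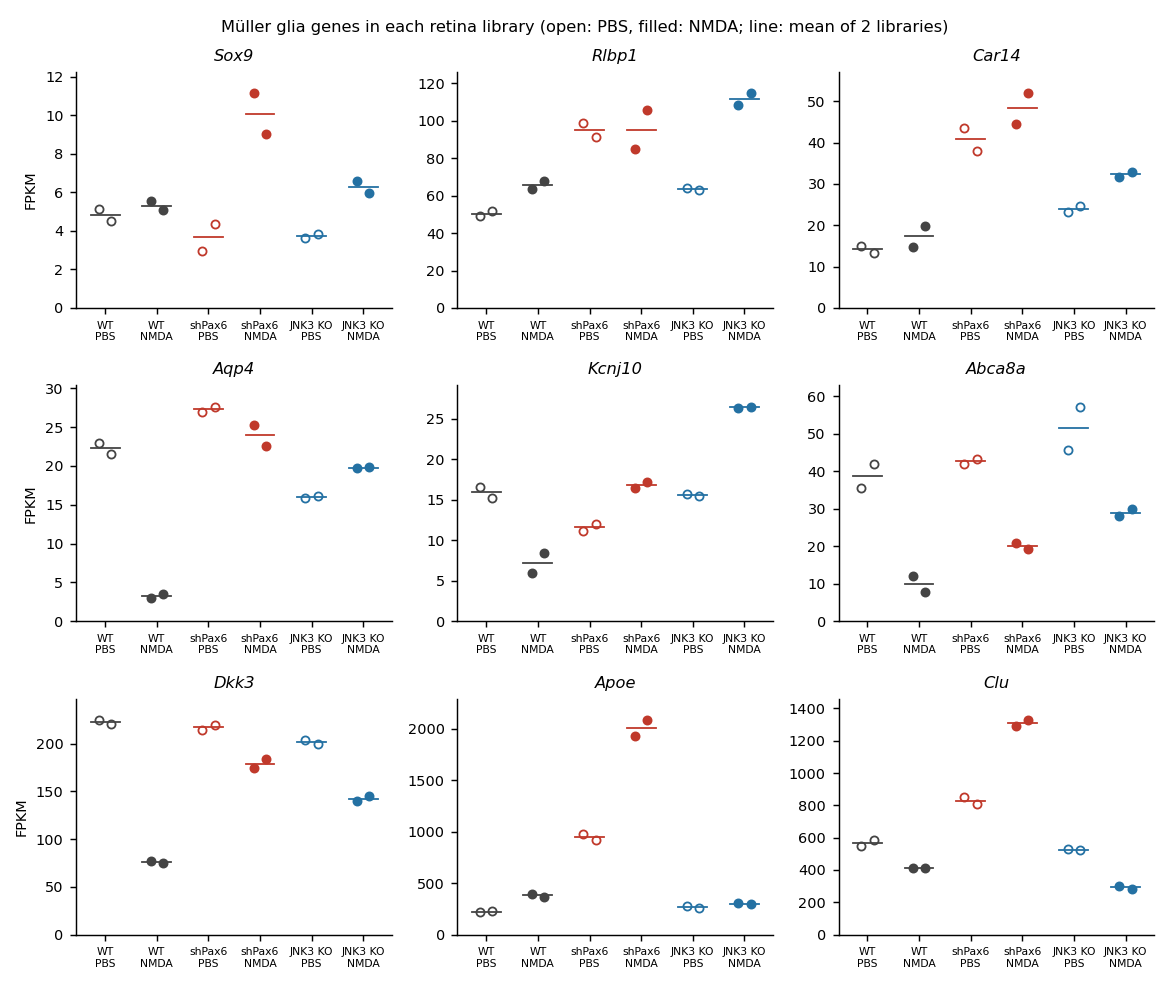
FPKM of the 9 Müller glia genes (vertical axes from 0) in each of the 12 retina libraries, by genotype and injection; each point is a library and each line the mean of 2. *Aqp4* lay at 3.05 and 3.46 FPKM in the WT NMDA libraries and between 15.9 and 27.63 in the other 10, and *Apoe* was highest in the 4 sh*Pax6* libraries.

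The first comparison asked how the genes changed after NMDA in WT retinas. The water and potassium channels, *Abca8a* and *Dkk3* were lower, and *Apoe* and *Rlbp1* were modestly higher. Of the 9 genes 2 were called higher and 5 lower, against 26.0% and 33.8% of all genes tested, and the median log2 difference was -0.47 beside -0.09 over all genes. *Aqp4*, which sits in the glial endfeet on vessels and vitreous, went from 22.94 and 21.6 to 3.05 and 3.46 FPKM. This was 6.68-fold lower, a log2 difference of -2.74 (SE 0.10, adjusted p = 6.21e-08). *Kcnj10*, which shares those endfeet, went from 16.54 and 15.27 to 6.0 and 8.39 FPKM, a log2 difference of -1.15 (SE 0.14, adjusted p = 9.78e-05). *Abca8a* went from 35.42 and 41.92 to 12.07 and 7.87 FPKM, 3.92-fold lower (log2 difference -1.97, SE 0.19, adjusted p = 1.68e-05). For all 3 genes both NMDA libraries lay below both PBS libraries.

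The secreted products split. *Dkk3* went from 224.94 and 220.31 to 76.98 and 75.3 FPKM, a log2 difference of -1.55 (SE 0.05, adjusted p = 3.24e-08). *Clu* fell less, from 548.37 and 582.44 to 409.11 and 409.43 FPKM (log2 difference -0.47, SE 0.05, adjusted p = 2.92e-05). *Apoe* went the other way, from 219.48 and 226.46 to 395.69 and 367.27 FPKM, 1.71-fold higher (log2 difference 0.77, SE 0.06, adjusted p = 6.39e-06). The 2 groups did not overlap for any of these 3 genes. *Rlbp1* went from 49.12 and 51.73 to 63.54 and 67.73 FPKM, a log2 difference of 0.38 (SE 0.10, adjusted p = 0.0079), a call that ended without WT PBS library 1 (adjusted p = 0.0554) or WT NMDA library 2 (adjusted p = 0.0545). *Car14* stood at 15.09 and 13.37 and then 14.8 and 19.78 FPKM, with overlapping groups (log2 difference 0.27, adjusted p = 0.139), although it was called without WT NMDA library 1 (log2 difference 0.47, adjusted p = 0.0177). *Sox9*, needed to form Müller glia, had 5.16 and 4.49 and then 5.53 and 5.1 FPKM, also with overlapping groups (log2 difference 0.14, SE 0.20, adjusted p = 0.591).

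In this comparison the change of a gene went with the length of its transcripts. Over all genes tested the median log2 difference was 1.03 for genes with a mean spliced length under 1000 bases and -1.35 for those of 5000 bases or more; after NMDA in sh*Pax6* retinas the same 2 medians were 0.18 and -0.10, and in JNK3 KO retinas -0.11 and 0.22. The members run from *Apoe*, at 975 bases, to *Kcnj10*, at 5407, with *Car14* at 1585, *Clu* at 1781, *Rlbp1* at 2063, *Dkk3* at 3359, *Abca8a* at 3912, *Sox9* at 4135 and *Aqp4* at 4314. When the trend on length was removed from each library, *Aqp4* (log2 difference -1.85), *Abca8a* (-1.21), *Dkk3* (-0.99) and *Clu* (-0.75) stayed lower, each with an adjusted p under the threshold. The length used for *Aqp4* leaves out its transcript Aqp4-212, which had no length in the annotation used. Aqp4-212 held 26.9% to 39.6% of *Aqp4* FPKM in WT PBS and 85.0% to 100% in WT NMDA libraries. *Kcnj10* came to -0.01 (adjusted p = 0.975), so its lower level in WT NMDA libraries was no larger than that of genes of its length. *Apoe* turned to -0.20 (adjusted p = 0.0085), and *Sox9* came to 0.98 (adjusted p = 0.00357). *Rlbp1* kept 0.29 (adjusted p = 0.0359), but had -0.19 with TPM and -0.01 with quantile scaling. TPM, which give every library the same total, moved the median of all genes from -0.09 to -0.66. Among all calls 43.5% were higher, against 21.4% with TPM. The source of the length trend was not tested, and the directions of *Apoe*, *Rlbp1*, *Car14* (-0.30 with TPM, -0.17 with the trend removed) and *Sox9* (-0.43 with TPM) in WT retinas depended on scaling.

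**Figure D2:**
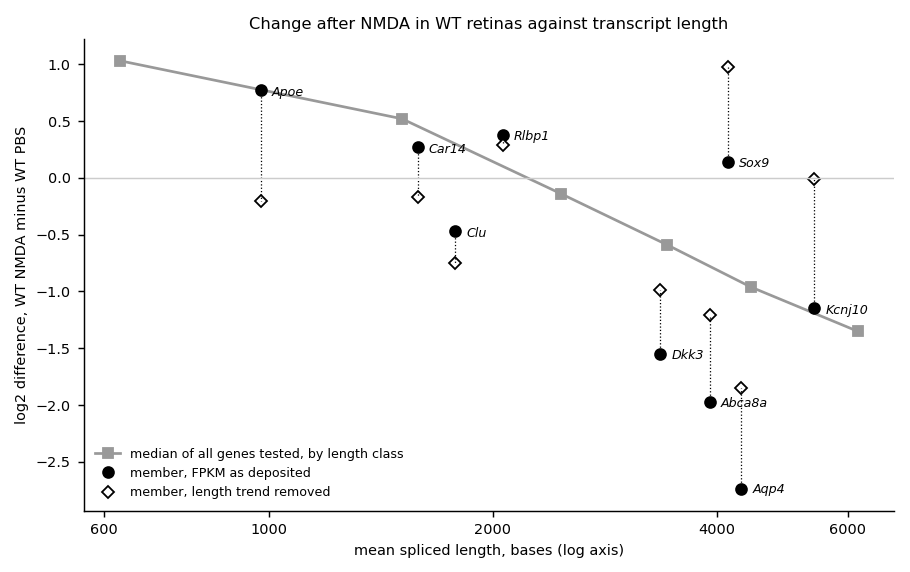
Log2 difference between WT NMDA and WT PBS libraries (vertical axis) against mean spliced length in bases (log axis); grey squares are medians of all genes tested in 6 length classes, filled circles the 9 members as deposited and open diamonds the same members with the length trend removed. *Aqp4* lay well under the grey line at its length, *Kcnj10* close to it (-0.01 after removal), and *Sox9* above it.

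In sh*Pax6* retinas the same injection left a different pattern, in which *Sox9*, *Apoe*, *Clu* and *Kcnj10* rose. Of the 9 genes 4 were called higher and 2 lower, against 19.1% and 11.0% of all genes, with a median log2 difference of 0.24 beside 0.10. *Sox9* went from 2.95 and 4.38 FPKM under PBS to 11.14 and 9.05 under NMDA, 2.74-fold higher (log2 difference 1.46, SE 0.20, adjusted p = 0.000781). *Apoe* went from 979.88 and 916.06 to 1929.76 and 2083.6 FPKM (log2 difference 1.08, SE 0.06, adjusted p = 4.52e-06). *Clu* went from 850.68 and 806.8 to 1289.41 and 1328.82 FPKM (log2 difference 0.66, SE 0.05, adjusted p = 1.6e-05). For these 3 genes both NMDA libraries lay above both PBS libraries. *Kcnj10* went from 11.2 and 12.06 to 16.49 and 17.21 FPKM (log2 difference 0.53, SE 0.14, adjusted p = 0.0213), and its call ended without sh*Pax6* PBS library 1 (adjusted p = 0.0955), sh*Pax6* NMDA library 1 (0.0621) or sh*Pax6* NMDA library 2 (0.0761). *Abca8a* fell from 41.78 and 43.37 to 20.79 and 19.23 FPKM (log2 difference -1.09, SE 0.19, adjusted p = 0.00236). *Dkk3* fell slightly, from 214.41 and 219.78 to 174.8 and 183.54 FPKM (log2 difference -0.28, adjusted p = 0.00189). The channel that had dropped most in WT retinas, *Aqp4*, stood at 26.91 and 27.63 and then 25.26 and 22.59 FPKM, a log2 difference of -0.19 (SE 0.10) that did not pass (adjusted p = 0.177). It was called lower with quantile scaling (-0.33, adjusted p = 0.0369) and at the 75th percentile (-0.31, adjusted p = 0.0452), where *Kcnj10* was not called (0.41, adjusted p = 0.0643) and the count was 3 higher and 3 lower. *Car14* had 43.6 and 38.05 and then 44.6 and 51.89 FPKM (adjusted p = 0.243), and *Rlbp1* 98.67 and 91.47 and then 84.81 and 105.75 (adjusted p = 0.991). Of all calls in sh*Pax6* retinas 63.4% were higher, against 44.0% with quantile scaling, 48.6% with scaling to the 75th percentile and 47.5% with the length trend removed. With the spread estimated from the sh*Pax6* groups alone, 3 of the 6 calls were left, those of *Apoe*, *Clu* and *Abca8a*.

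In JNK3 KO retinas *Rlbp1* and *Kcnj10* rose after NMDA, and *Clu*, *Abca8a* and *Dkk3* fell. In all 2 of the 9 genes were called higher and 3 lower, where 4.33% and 6.10% of all genes were, with a median of 0.30 beside -0.01. *Rlbp1* went from 64.01 and 63.18 to 108.22 and 114.61 FPKM, 1.75-fold higher (log2 difference 0.81, SE 0.10, adjusted p = 0.00132). *Kcnj10* went from 15.7 and 15.47 to 26.34 and 26.49 FPKM (log2 difference 0.76, SE 0.14, adjusted p = 0.0116). In WT retinas *Kcnj10* was lower as deposited (-1.15), but came to -0.01 with the length trend removed (adjusted p = 0.975). *Clu* went from 529.62 and 523.41 to 303.29 and 284.89 FPKM (log2 difference -0.84, SE 0.05, adjusted p = 2.44e-05), while *Apoe* had 278.35 and 254.52 and then 303.45 and 298.89 FPKM (log2 difference 0.18, adjusted p = 0.115). *Abca8a* went from 45.67 and 57.18 to 27.96 and 29.84 FPKM (log2 difference -0.82, adjusted p = 0.0253). Its coding transcript Abca8a-201 was not called there (log2 difference -0.39, adjusted p = 0.344). *Dkk3* went from 204.19 and 200.03 to 139.92 and 145.2 (log2 difference -0.50, adjusted p = 0.000318). The PBS and NMDA libraries of these 5 called genes did not overlap, which adds no test to the calls. *Aqp4* had 15.9 and 16.19 and then 19.77 and 19.8 FPKM (adjusted p = 0.0888), *Car14* 23.25 and 24.59 and then 31.78 and 32.91 (adjusted p = 0.0942), and *Sox9* 3.65 and 3.86 and then 6.59 and 5.96 (adjusted p = 0.0567). These 3 genes did not pass the test with all libraries, although leaving out a library of another genotype brought each past it. *Aqp4* had an adjusted p of 0.0424 and 0.0436 without either sh*Pax6* NMDA library. *Sox9* had 0.0244 and 0.0253 without either sh*Pax6* PBS library, and *Car14* 0.0448 and 0.0454 without either WT NMDA library. Leaving out any 1 of the 4 JNK3 KO libraries left 3 calls, because *Kcnj10* (adjusted p between 0.0721 and 0.0875) and *Abca8a* (between 0.0633 and 0.162) no longer passed.

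**Figure D3:**
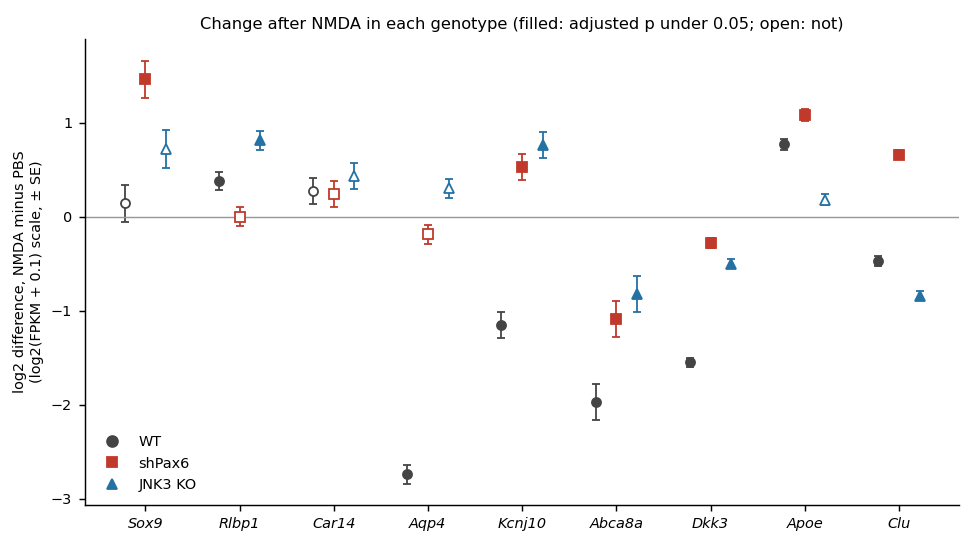
Log2 difference between NMDA and PBS libraries (vertical axis, log2(FPKM + 0.1) scale, bars ± SE) of the 9 genes in WT (circles), sh*Pax6* (squares) and JNK3 KO retinas (triangles), filled where the adjusted p was under 0.05. *Aqp4* was at -2.74 in WT retinas and at -0.19 and 0.30 in the others, whereas *Abca8a* and *Dkk3* were below 0 in all 3 genotypes.

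The differences between responses were tested themselves, as interaction contrasts that share the WT, sh*Pax6* or JNK3 KO libraries and so are not independent of each other. The WT response differed from the sh*Pax6* response in 8 of the 9 genes, where 49.7% of all genes did, and from the JNK3 KO response in 7, where 51.4% did. The sh*Pax6* and JNK3 KO responses differed in 5, where 17.7% of all genes did. *Aqp4* differed most: its WT response was below the sh*Pax6* response by a log2 difference of -2.55 (SE 0.14, adjusted p = 2.55e-06), and below the JNK3 KO response by -3.04 (SE 0.14, adjusted p = 5.77e-07). With the length trend removed these were -1.65 and -2.05. For *Kcnj10* the differences were -1.68 (adjusted p = 0.000165) and -1.91 (adjusted p = 5.47e-05), which came to -0.59 and -0.61 without the length trend. *Dkk3* had -1.27 (adjusted p = 2.06e-06) against sh*Pax6* and -1.04 (adjusted p = 2.57e-06) against JNK3 KO, which came to -0.62 and -0.44 without the length trend. The gene with the largest difference between sh*Pax6* and JNK3 KO responses was *Clu*, which rose in one and fell in the other (difference 1.50, SE 0.07, adjusted p = 3.91e-06). *Apoe* rose more in sh*Pax6* than in JNK3 KO retinas (difference 0.90, adjusted p = 0.000261), and *Rlbp1* less (difference -0.81, adjusted p = 0.00466). Among all genes called, 36.8% had a higher WT than sh*Pax6* response (16.3% with TPM, 53.5% with the length trend removed), 45.7% a higher WT than JNK3 KO response (23.2% with TPM) and 68.2% a higher sh*Pax6* than JNK3 KO response (43.2% with quantile scaling, 51.5% at the 75th percentile, 55.5% with the trend removed). The WT against JNK3 KO differences of *Clu* (0.38) and *Apoe* (0.60) turned to -0.67 and -0.43 with quantile scaling. *Car14* was called in none of the 3 contrasts, with differences of 0.03, -0.17 and -0.19 (SE 0.20 each), but that of WT against JNK3 KO was called with TPM (-0.76, adjusted p = 0.00967) and with the length trend removed (-0.70, adjusted p = 0.028).

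Several of these calls ended with another scaling. With the length trend removed, *Abca8a* came to -0.08 (adjusted p = 0.83) against sh*Pax6* and -0.32 (adjusted p = 0.39) against JNK3 KO. Other fits took these 2 differences of *Abca8a* as far as -2.82 and -3.24. The length used for it, 3912 bases, is a mean over transcripts that include Abca8a-201 (5614 bases) and Abca8a-206 (299 bases). The WT against sh*Pax6* difference of *Sox9* (-1.32, adjusted p = 0.00476) came to -0.46 (adjusted p = 0.241), and to -0.72 with quantile scaling (adjusted p = 0.0822). The WT against JNK3 KO difference of *Clu* came to 0.02 (adjusted p = 0.868).

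Other calls hung on single libraries. Against sh*Pax6*, the WT response of *Rlbp1* (difference 0.38, adjusted p = 0.0442) was no longer called without any of 11 of the 12 libraries, all but sh*Pax6* NMDA library 2 (adjusted p between 0.0529 and 0.129). That of *Abca8a* (-0.89, adjusted p = 0.0209) was lost without WT PBS library 2, either sh*Pax6* PBS library or sh*Pax6* NMDA library 1 (adjusted p between 0.0501 and 0.0792). That of *Apoe* (-0.31, adjusted p = 0.0179) was lost without library 2 of any of the 4 groups (adjusted p between 0.0604 and 0.0669). Against JNK3 KO, *Rlbp1* (-0.43, adjusted p = 0.0273) lost its call without any of the 8 libraries of those groups other than WT NMDA library 2 (adjusted p between 0.0505 and 0.0914), whereas *Sox9* was not called (difference -0.59, adjusted p = 0.124). Between sh*Pax6* and JNK3 KO, *Aqp4* (-0.49, adjusted p = 0.039) was lost without 9 of the 12 libraries, all but both WT NMDA libraries and sh*Pax6* NMDA library 1, and *Dkk3* (0.23, adjusted p = 0.0422) without 7, both WT PBS libraries, sh*Pax6* PBS library 1 and all 4 JNK3 KO libraries. The highest adjusted p was 0.113 for *Aqp4* and 0.124 for *Dkk3*.

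Before any NMDA, sh*Pax6* retinas already differed from WT retinas in the level of these genes. Of the 9 genes 4 were called higher and 0 lower, where 5.36% of all genes were called higher and 11.2% lower, and at an unadjusted p under 0.05 limma had 1 gene lower, *Kcnj10*. *Apoe* stood at 219.48 and 226.46 FPKM in WT and 979.88 and 916.06 in sh*Pax6* PBS libraries, 4.25-fold higher (log2 difference 2.09, SE 0.06, adjusted p = 5.49e-07). *Car14*, which speeds the exchange of carbon dioxide and bicarbonate at the cell surface, had 15.09 and 13.37 against 43.6 and 38.05 FPKM (log2 difference 1.51, SE 0.14, adjusted p = 0.000185). *Rlbp1* had 49.12 and 51.73 against 98.67 and 91.47 FPKM, 1.88-fold higher (log2 difference 0.91, SE 0.10, adjusted p = 0.000361). *Clu* had 548.37 and 582.44 against 850.68 and 806.8 FPKM (log2 difference 0.55, SE 0.05, adjusted p = 0.000119). The 2 groups did not overlap for any of these 4 genes. Higher genes made up 32.4% of all calls, against 42.5% with quantile scaling and 46.6% with the length trend removed. All 4 calls stayed in every alternative fit listed in the closing section other than the fold limits, which *Rlbp1* and *Clu* did not reach, with log2 differences from 2.04 to 2.14 for *Apoe*, 1.42 to 1.63 for *Car14*, 0.86 to 0.98 for *Rlbp1* and 0.45 to 0.61 for *Clu*. The other 5 genes did not pass: *Aqp4* (log2 difference 0.29, adjusted p = 0.0754), *Abca8a* (0.14, adjusted p = 0.674), *Dkk3* (-0.04, adjusted p = 0.661), *Sox9* (-0.41, adjusted p = 0.222) and *Kcnj10* (-0.45, adjusted p = 0.065). *Aqp4* passed when either sh*Pax6* NMDA library was left out (adjusted p = 0.0358 and 0.0365), *Kcnj10* when either WT NMDA library was (adjusted p = 0.011 and 0.0113) and *Sox9* without sh*Pax6* PBS library 2 (log2 difference -0.69, adjusted p = 0.0465).

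The start-site sequences of the higher genes are shown because sh*Pax6* targets a transcription factor and these genes were higher together. They run 5′ to 3′ on the strand of the gene, from 250 bases before to 50 bases after the annotated start, and come from RefSeq (GRCm38.p6), whose table held 5 of the 9 genes. *Apoe* had 3 starts in it, of which the outermost is shown, on the minus strand of chromosome 7 as chr7:19699139-19699438. The sequence of *Rlbp1* is chr7:79386978-79387277 and that of *Car14* chr3:95904636-95904935, both also on the minus strand.
Apoe: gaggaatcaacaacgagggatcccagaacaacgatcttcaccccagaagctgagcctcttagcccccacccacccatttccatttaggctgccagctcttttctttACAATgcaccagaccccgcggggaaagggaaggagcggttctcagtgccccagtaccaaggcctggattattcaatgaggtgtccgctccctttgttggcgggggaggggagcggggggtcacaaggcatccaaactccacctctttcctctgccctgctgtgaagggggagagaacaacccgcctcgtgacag
Rlbp1: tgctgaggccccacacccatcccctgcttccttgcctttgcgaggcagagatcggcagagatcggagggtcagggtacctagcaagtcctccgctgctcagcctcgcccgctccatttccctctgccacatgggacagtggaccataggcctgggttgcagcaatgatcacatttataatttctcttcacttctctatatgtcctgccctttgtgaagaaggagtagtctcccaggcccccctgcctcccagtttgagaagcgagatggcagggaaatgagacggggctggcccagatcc
Car14: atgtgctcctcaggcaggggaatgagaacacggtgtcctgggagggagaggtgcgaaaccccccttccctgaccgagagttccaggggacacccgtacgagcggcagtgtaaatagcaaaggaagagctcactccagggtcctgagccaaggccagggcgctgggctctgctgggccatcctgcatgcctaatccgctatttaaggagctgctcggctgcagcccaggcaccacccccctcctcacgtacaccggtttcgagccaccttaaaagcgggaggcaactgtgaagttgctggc
Capitals mark the SOX motif ACAAT (or ATTGT on the other strand), found in 31.0% of the 32851 start-site sequences of the table. The AP-1 motif TGANTCA, found in 7.81%, and a PAX6 core TTCACGC or GCGTGAA, found in 1.26%, were also searched for on both strands, and no match overlapped another. Of the 3 sequences only that of *Apoe* held a match, 1 SOX motif starting at position -144 from the start. Those of *Kcnj10* and *Abca8a* were searched as well, and that of *Abca8a* held 1 SOX motif at position -95. A match or its absence is a description of these letters in this window.

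In bulk tissue, more cells of a type and more RNA per cell cannot be told apart, and *Apoe* and *Rlbp1* are also read by other cells. *Apoe* is strongly expressed by activated microglia. Of 15 markers of microglia and macrophages 6 were called higher and 5 lower in sh*Pax6* PBS than in WT PBS libraries, where 5.36% and 11.2% of all genes were. Their summed FPKM was 277 to 298 against 239 to 258. The complement gene *C1qb* rose with *Apoe*, from 10.82 and 11.49 to 51.74 and 47.25 FPKM (log2 difference 2.14, adjusted p = 6.78e-06), and *C1qa*, picked after its values were seen, from 11.51 and 12.47 to 57.06 and 50.78. *Cd68* fell, from 7.25 and 8.17 to 4.44 and 5.99 FPKM (adjusted p = 0.0228), and so did *Tyrobp*, also picked after its values were seen, from 47.35 and 51.85 to 24.54 and 20.48. After NMDA in sh*Pax6* retinas 11 of the 15 markers were called higher and 0 lower (0 also at an unadjusted p under 0.05 in limma), with a summed FPKM of 1130 to 1140. In WT retinas after NMDA 9 were higher and 5 lower (6 and 7 with TPM, 4 and 3 with the length trend removed), and the sum was 492 to 501. Of all genes 19.1% were called higher and 11.0% lower after NMDA in sh*Pax6*, and 26.0% and 33.8% in WT retinas. None of the 15 was at 0 in any group, and the part of these cells in the *Apoe* values was not tested.

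*Rlbp1* is shared with the retinal pigment epithelium (RPE), a layer that can remain attached to a dissected retina. Of 11 RPE markers 7 were above the filter, and 0 of them were called in sh*Pax6* against WT PBS libraries (2 higher and 0 lower at an unadjusted p under 0.05 in limma). *Rlbp1* was 1.88-fold higher there. The RPE sum was 70.9 to 76.7 FPKM in those sh*Pax6* libraries and 64.5 to 70.5 in WT. Much of it came from *Ttr*, picked after its values were seen, at 35.76 and 32.34 FPKM in sh*Pax6* and 30.17 and 36.78 in WT. Of the 11 markers 4 averaged under 1 FPKM in sh*Pax6* PBS and 5 in WT PBS libraries. After NMDA in sh*Pax6* retinas 6 of the 7 fell, and the sum was 16.6 to 21.6 FPKM. Of this list *Rgr*, which encodes a retinal G protein-coupled receptor, went from 12.94 and 14.99 to 0.87 and 0.98 FPKM there (log2 difference -3.78, adjusted p = 6.5e-06). *Rlbp1* stood at 84.81 and 105.75 in those libraries. *Rdh5*, a retinol dehydrogenase, fell as well (log2 difference -0.72, adjusted p = 0.00476). *Rpe65*, the defining enzyme of the RPE and picked after its values were seen, was at 0.11 and 0.35 FPKM in those libraries. The part of the RPE in the *Rlbp1* values was not tested, nor whether each marker of this list was read in the RPE alone. Of 10 astrocyte markers, *Gjb6* was listed at 0 in every library, 7 were above the filter, and 2 were called higher and 3 lower in sh*Pax6* PBS libraries. *Aldh1l1*, a folate enzyme of astrocytes, was lower there, at 8.07 and 8.88 against 18.45 and 17.03 FPKM, and *Gfap*, which astrocytes and reactive Müller glia both express, fell from 78.01 and 81.59 to 50.36 and 42.86 FPKM (adjusted p = 0.000225).

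**Figure D4:**
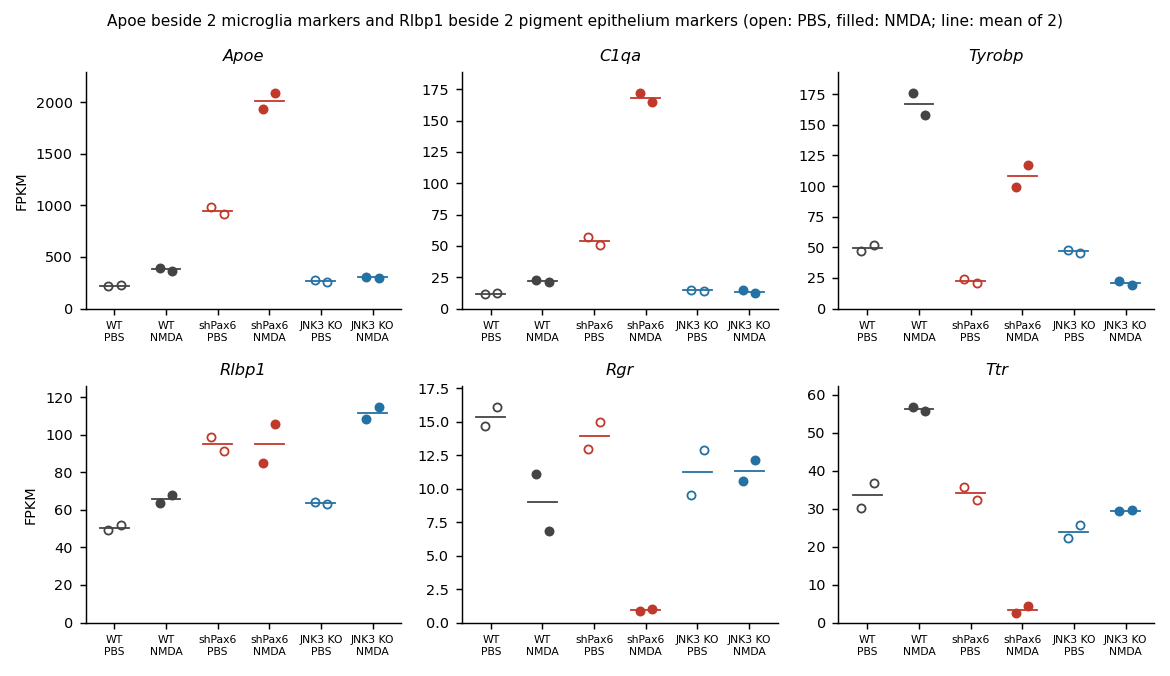
FPKM (vertical axes from 0) of *Apoe* beside the microglia genes *C1qa* and *Tyrobp*, and of *Rlbp1* beside *Rgr* and *Ttr* of the RPE list, in each of the 12 libraries. Points are libraries and lines means of 2. *Apoe* and *C1qa* were highest in sh*Pax6* NMDA libraries while *Tyrobp* was highest in WT NMDA libraries, and *Rgr* and *Ttr* were near 0 in the sh*Pax6* NMDA libraries, where *Rlbp1* was 84.81 and 105.75; *C1qa*, *Tyrobp* and *Ttr* were picked after their values were seen.

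In uninjured JNK3 KO retinas only *Car14* was called. It had 15.09 and 13.37 FPKM in WT and 23.25 and 24.59 in JNK3 KO PBS libraries, 1.68-fold higher (log2 difference 0.75, SE 0.14, adjusted p = 0.0434), and 1.10% of all genes were called higher and 0.407% lower. With all 12 libraries, 7 of 11 other fits gave no call (adjusted p from 0.0601 to 0.152). It was also lost without any of 10 of the 12 libraries, all but those of WT NMDA, with adjusted p between 0.0546 and 0.208. *Aqp4* was at 22.94 and 21.6 in WT against 15.9 and 16.19 FPKM and did not pass (log2 difference -0.47, SE 0.10, adjusted p = 0.0543), and it passed without either sh*Pax6* NMDA library (adjusted p = 0.0347 and 0.0348), with either larger pseudocount (0.046 and 0.0495), with the filter on the mean of all libraries (0.0484) and with TPM (-0.54, adjusted p = 0.0452). With TPM or scaling to the 75th percentile the single call was thus *Aqp4* lower and not *Car14* higher. *Rlbp1* had 64.01 and 63.18 FPKM and did not pass (log2 difference 0.33, adjusted p = 0.145). It passed without either sh*Pax6* NMDA library as well (adjusted p = 0.041 and 0.0417). Of all calls 73.1% were higher, against 56.6% with TPM, 32.1% with quantile scaling and 53.1% at the 75th percentile. The other 6 genes had log2 differences from -0.35 for *Sox9* to 0.41 for *Abca8a*, each with an adjusted p above the threshold.

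Other Müller glia genes and the partners of the 9 genes were counted in the same fits. The counts here and in the next paragraphs stand beside the shares of all genes called. After NMDA 26.0% were called higher and 33.8% lower in WT, 19.1% and 11.0% in sh*Pax6* and 4.33% and 6.10% in JNK3 KO retinas. In uninjured sh*Pax6* against WT retinas the shares were 5.36% and 11.2%. Whether a list differed from these shares was not tested. Of the 17 further Müller glia genes 6 were called higher and 8 lower after NMDA in WT retinas, 12 higher and 1 lower in sh*Pax6* and 7 higher and 2 lower in JNK3 KO retinas. *Slc1a3*, the glial glutamate transporter GLAST, fell in WT retinas from 70.18 and 69.28 to 24.57 and 26.19 FPKM and rose in sh*Pax6* retinas from 46.82 and 47.1 to 69.6 and 68.0. *Glul*, which turns that glutamate into glutamine, fell in all 3 genotypes, with log2 differences of -0.37, -0.56 and -0.68. *Vim*, an intermediate filament of glia, rose in all 3 (1.72, 1.45 and 0.87), and *Dbi*, a carrier of acyl-CoA, rose in WT and sh*Pax6* retinas (1.19 and 1.11). *Gpr37*, a glial receptor, fell in WT retinas with a log2 difference of -1.55. With the length trend removed, the WT calls of *Dbi* (0.08, adjusted p = 0.468) and *Glul* (-0.06, adjusted p = 0.245) ended.

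Of 18 reactive gliosis genes 7 were called higher and 10 lower after NMDA in WT retinas. In sh*Pax6* retinas 16 were called higher and 0 lower (0 lower also at an unadjusted p under 0.05 in limma), and 4 and 6 in JNK3 KO retinas. With the length trend removed the WT count was 9 higher and 6 lower. *Gfap* fell in WT retinas, from 78.01 and 81.59 to 55.74 and 55.3 FPKM, and rose in sh*Pax6* retinas, from 50.36 and 42.86 to 102.98 and 97.8. *Serpina3n*, a secreted protease inhibitor of reactive glia, had log2 differences of -1.24 in WT, 1.09 in sh*Pax6* and -1.13 in JNK3 KO retinas. *Cp*, ceruloplasmin, had -1.04, 0.84 and -0.99. *Cebpd* and *Bcl3*, a transcription factor and a nuclear cofactor of NF-κB, rose in WT (1.44 and 1.91) and sh*Pax6* retinas (0.94 and 2.31). The uninjured sh*Pax6* retinas had 1 of the 18 genes higher and 11 lower than WT.

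Of 9 genes of the dystrophin complex, which anchors AQP4 and Kir4.1 in the endfeet, 1 was called higher and 7 lower after NMDA in WT retinas, and 1 and 1 in sh*Pax6* and 0 in JNK3 KO retinas (2 higher at an unadjusted p under 0.05 in limma). *Utrn* (utrophin) fell in WT retinas from 12.86 and 11.8 to 2.91 and 2.62 FPKM and *Sntb2* (a syntrophin) from 13.44 and 12.48 to 6.05 and 4.35. With the length trend removed 2 were higher and 2 lower, with *Sntb2* at 0.35. Of 9 further channels and pumps of glia above the filter 1 rose and 4 fell in WT retinas, among them *Slc12a2*, a chloride cotransporter (log2 difference -1.57), and *Atp1b2*, a sodium pump subunit (-0.57). The count was 1 higher and 1 lower with the length trend removed, where *Slc12a2* came to -0.25 (adjusted p = 0.177), and 9 lower with TPM.

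Around *Rlbp1*, 3 of 10 genes of the visual cycle rose and 5 fell in WT retinas. *Rdh8*, a retinol dehydrogenase of photoreceptors, fell from 60.17 and 55.42 to 12.14 and 16.41. Around *Car14*, 2 of 16 genes of acid-base transport rose and 10 fell in WT retinas, and the bicarbonate transporters *Slc4a10* (-2.45) and *Slc4a7* (-2.18) led. Around *Apoe* and *Clu*, 2 of 14 lipoprotein genes rose and 8 fell in WT retinas, but 5 rose with the length trend removed; *Vldlr*, a receptor for apolipoprotein E, came to -0.16 from -1.48 and *Sort1*, sortilin, to 0.27 from -1.07. Uninjured sh*Pax6* retinas had 4 of these 14 higher and 3 lower, *Vldlr* among the higher at 73.41 and 72.44 against 47.21 and 45.32 FPKM.

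*Abca8b*, the neighbouring paralog of *Abca8a*, fell in WT retinas from 10.94 and 10.09 to 1.83 and 1.75 FPKM (log2 difference -2.49, adjusted p = 9.09e-07). Reads of the pair may have been split uncertainly between them. Of 8 genes of the ABCA family other than *Abca8a*, 1 rose and 6 fell in WT retinas, against 3 and 2 with the length trend removed. *Abca1*, which loads lipid onto apolipoprotein E, fell in WT (6.58 and 6.47 to 1.45 and 1.82 FPKM) and rose in sh*Pax6* retinas (11.87 and 12.16 to 23.97 and 26.57 FPKM), although its WT call ended without the length trend (-0.28, adjusted p = 0.207). Near *Dkk3*, 0 of 12 Wnt pathway genes rose and 5 fell in WT retinas (0 and 6 at an unadjusted p under 0.05 in limma), where *Fzd5* (-0.96) and *Lrp6* (-0.69) turned to 0.40 and 0.36 without the length trend. Among 3 other SOX genes above the filter, *Sox2* fell in WT retinas (log2 difference -0.41) and rose in sh*Pax6* (0.72) and JNK3 KO retinas (0.90), and *Sox4* fell in WT retinas (-1.37). These WT calls ended for *Sox2* with quantile scaling (-0.19, adjusted p = 0.175) and for *Sox4* with the length trend removed (-0.35, adjusted p = 0.299).

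Markers of the neurons moved in the same libraries. RGC markers fell in 9 of 12 after NMDA in each genotype and in 9 of 12 in uninjured sh*Pax6* against WT retinas. *Nefl*, a neurofilament of RGCs, had 162.46 and 160.25 FPKM under WT PBS, 27.66 and 25.52 under WT NMDA and 40.54 and 35.34 under sh*Pax6* PBS, and *Nefm* had 51.29 and 54.15, 11.69 and 10.5, and 11.83 and 15.18. Of 10 rod markers 10 were higher in sh*Pax6* PBS than in WT PBS libraries, *Gngt1* with 1240.97 and 1281.37 against 782.37 and 816.47 FPKM and *Rp1* with 321.75 and 358.08 against 252.79 and 239.94, beside the 4 members that were higher there. Of 9 amacrine markers 8 fell after NMDA in WT retinas (*Gad2* by a log2 difference of -2.09, *Tfap2b* -1.83), of 9 bipolar markers 7 (2 with the length trend removed; *Trpm1* -1.77, with *Pcp2* higher at 1.60), and of 9 endothelial markers 2 fell and 2 rose (*Kdr* -1.67, *Egfl7* 1.92). The part of these shifts in cell makeup in the members' FPKM was not tested.

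The deposited transcript table held 55 transcripts of the 9 genes, of which 36 were above the filter on low values. After NMDA in WT retinas 14 of the 36 were called, where 35.2% of all 49940 transcripts tested were. In sh*Pax6* retinas 7 were called (8.34% of all), in JNK3 KO retinas 2 (1.31%), and in sh*Pax6* against WT retinas under PBS 6 (2.73%). The WT count was 7 without WT PBS library 1 and 9 without either WT NMDA library, the sh*Pax6* NMDA count 17 without sh*Pax6* NMDA library 2, and the JNK3 KO count 4 without either WT NMDA library. *Kcnj10*, *Sox9* and *Dkk3* had 1 transcript each, and *Clu* FPKM came almost wholly from Clu-201.

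*Aqp4* was divided over Aqp4-201, a coding transcript of 5054 bases, Aqp4-212, whose length was not in the annotation used, and lesser ones. Aqp4-201 had 10.21 and 13.37 FPKM under WT PBS and 0.0 and 0.52 under WT NMDA (log2 difference -5.56, adjusted p = 0.000617), while Aqp4-212 had 9.09 and 5.82 and then 3.05 and 2.94. Thus 85.0% and 100% of the remaining *Aqp4* FPKM in WT NMDA libraries were assigned to Aqp4-212. In sh*Pax6* NMDA libraries the split of the same gene was 12.93 and 21.67 FPKM for Aqp4-201 and 10.43 and 0.0 for Aqp4-212, although the gene totals were 25.26 and 22.59.

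The coding *Abca8a* transcript Abca8a-201, of 5614 bases and 39 exons, went from 25.95 and 27.2 to 2.07 and 2.31 FPKM in WT retinas (log2 difference -3.54, adjusted p = 1.18e-06). The gene total fell less, with Abca8a-206, a noncoding transcript of 299 bases, at 9.84 and 5.56 FPKM there, 70.6% to 81.5% of the gene's value. After NMDA Abca8a-201 had a log2 difference of -0.68 in sh*Pax6* (adjusted p = 0.0222) and -0.39 in JNK3 KO retinas (adjusted p = 0.344). In JNK3 KO retinas Abca8a-201 went from 22.68 and 22.49 to 17.7 and 16.85 FPKM, and Abca8a-206 from 18.34 and 27.62 to 8.48 and 9.09. Abca8a-206 ranged from 0.0 in both sh*Pax6* NMDA libraries to 18.34 and 27.62 in the JNK3 KO PBS libraries, and its 2 WT PBS libraries differed widely (1.86 and 13.7). When gene values were built from transcripts of 1000 bases or more, a choice made after the data were seen, the WT log2 difference of *Abca8a* was -3.64, and that of JNK3 KO against WT under PBS turned from 0.41 to -0.18.

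*Apoe* was divided between the coding transcript Apoe-209 (1104 bases) and Apoe-202 (728 bases, annotated as noncoding). After NMDA in WT retinas Apoe-209 rose from 103.58 and 102.27 to 273.52 and 250.45 FPKM (log2 difference 1.35, adjusted p = 4.4e-05), and Apoe-202 fell from 87.19 and 95.78 to 73.39 and 63.81 (log2 difference -0.42, adjusted p = 0.00675). In sh*Pax6* retinas both rose after NMDA, Apoe-209 to 1118.18 and 1146.36 and Apoe-202 to 745.92 and 834.23 FPKM. Both were also higher in sh*Pax6* than in WT PBS libraries, by log2 differences of 2.25 and 2.08. With transcripts under 1000 bases left out, the WT and sh*Pax6* responses of *Apoe* differed by 0.11 (adjusted p = 0.434), instead of by -0.31. *Rlbp1* was carried by Rlbp1-201 and Rlbp1-202, of 2134 and 2142 bases. Against WT under PBS, Rlbp1-201 passed the test in sh*Pax6* (log2 difference 1.12, adjusted p = 0.0368) and Rlbp1-202 did not (0.56, adjusted p = 0.28). The split between them was not stable. The sh*Pax6* PBS libraries had 57.77 and 35.34 FPKM of Rlbp1-201 and 31.32 and 49.92 of Rlbp1-202. *Car14* came mainly from Car14-201, which was higher under sh*Pax6* PBS as well (log2 difference 1.43, adjusted p = 0.00241).

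**Figure D5:**
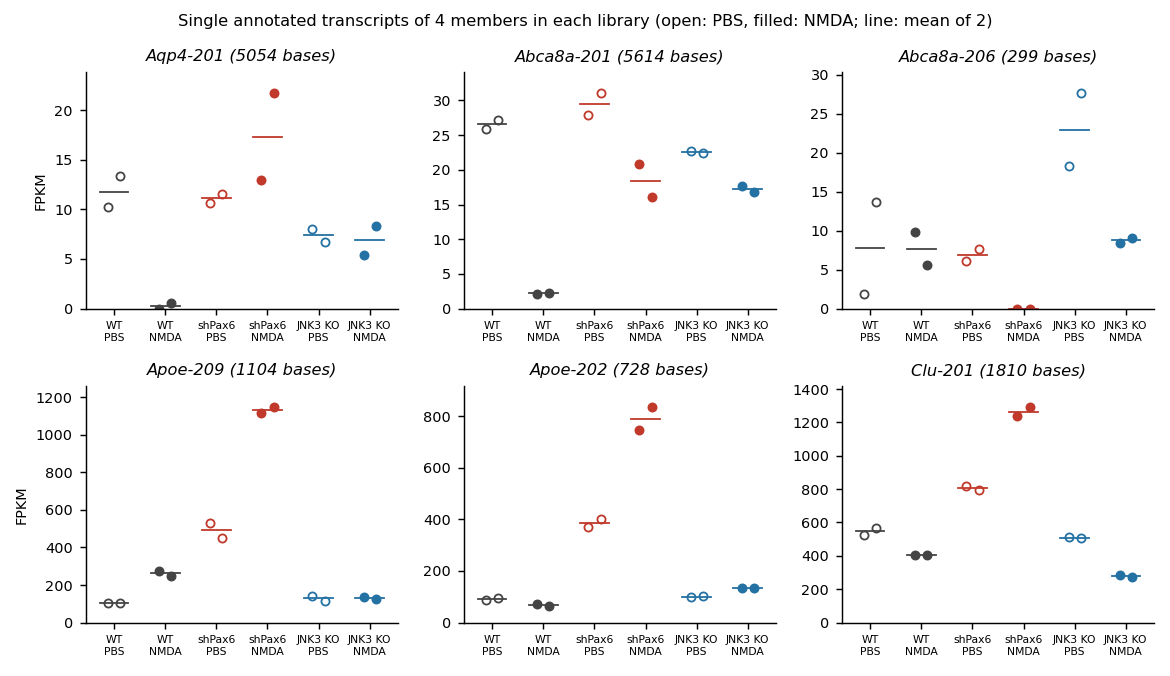
FPKM (vertical axes from 0) of 6 annotated transcripts of *Aqp4*, *Abca8a*, *Apoe* and *Clu* in each of the 12 libraries; points are libraries and lines means of 2. Abca8a-201 was at 2.07 and 2.31 FPKM in the WT NMDA libraries while Abca8a-206 was at 9.84 and 5.56, and Apoe-209 and Apoe-202 moved in opposite directions in WT retinas.

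Across the 12 libraries the 9 genes did not vary as 1 block. Over their 36 pairs the Pearson r of log2(FPKM + 0.1) ran from -0.49 for *Sox9* with *Abca8a* to 0.91 for *Aqp4* with *Dkk3*, with a median of 0.32, and 10 pairs were above 0.5. *Abca8a* went with *Dkk3* (r = 0.88) and *Aqp4* (r = 0.76), and *Kcnj10* with *Aqp4* (r = 0.71). *Apoe* went with *Clu* (r = 0.83) and *Car14* (r = 0.80), and *Car14* with *Rlbp1* (r = 0.86). These are descriptions over 12 libraries that share their groups and the length trend. Of 14622 other genes with a mean above 1 FPKM, the one most alike to *Dkk3* was *Mlc1*, a membrane protein of astroglial endfeet (r = 0.979). *Apoe* was most like *C1qa* (r = 0.992) and *Sox9* most like *C3ar1*, the receptor of complement C3a (r = 0.968), both genes of microglia. *Clu* was most like *Serping1*, the inhibitor of complement C1 (r = 0.985), and *Kcnj10* most like *Impg2*, a photoreceptor matrix gene (r = 0.981). For *Car14* it was *Shroom3* (r = 0.969), for *Abca8a* *Klhdc2* (r = 0.965) and for *Rlbp1* *Tardbp* (r = 0.934).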

How the data were processed

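Poly(A) RNA of 12 mouse retina samples was sequenced in pairs of reads (TruSeq mRNA kit). According to the submitters' processing notes and the study's methods, the authors aligned reads with STAR (2.7.1a) to GRCm38.p6 and estimated abundance with RSEM (1.3.3), and edgeR (3.36.0) and R (4.1.0) were also named. The deposited gene and transcript values are FPKM to 2 decimals, with replicates kept apart. FPKM divide by length and by mapped fragments, so a few abundant transcripts or a length trend in a library can shift all others. No read counts were used here, so depth is unknown and no counting interval could be given.

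The 16471 genes whose group mean exceeded 1 FPKM somewhere among the 6 groups were tested with limma (3.58.1, R 4.3.3) on log2(FPKM + 0.1) with 6 group means, 6 residual degrees of freedom and an intensity trend, and p-values were adjusted by Benjamini-Hochberg over all of them. Transcripts were tested the same way. The fit was tested on simulated data. Lengths came from GENCODE M21, which held 99.53% of gene identifiers, and the length trend was removed per library with a lowess curve (span 0.3). Tables and figures were made with Python 3.11.15, pandas 2.3.3 and matplotlib 3.10.9.

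The members, the gene lists and the tests were chosen with earlier results of these data known. All 9 members were named. Of each list the 2 genes (4 for gliosis and other Müller glia genes) with the lowest adjusted p after NMDA in WT retinas among those above 1 FPKM in both groups were named, plus *Glul*, *Slc1a3*, *Vim*, *Gfap*, *Abca8b*, *Pax6* and *Mapk10*. For each member the gene most alike over the 12 libraries was added. Genes outside this rule are marked in the text. Some genes the rule names are not reported here. Alternatives were pseudocounts of 0.5 and 1, other filters, TPM, quantile and 75th percentile scaling, length correction, no trend, a replicate block, the spread of the compared groups alone, fold limits, leaving out each library, and gene values from longer transcripts. The replicate numbers of PBS and NMDA libraries did not pair them.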

Additional observations from a re-analysis of the deposited data

Results flagged for a closer look

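The NMDA responses of 2 genotypes differed by a test of the difference itself in 20 cases, given here as log2 differences between responses; with 2 libraries in a group, no library was tested as standing apart. WT minus sh*Pax6* responses were -2.55 for *Aqp4*, -1.68 for *Kcnj10*, -1.32 for *Sox9*, -1.27 for *Dkk3*, -1.13 for *Clu*, -0.89 for *Abca8a*, -0.31 for *Apoe* and 0.38 for *Rlbp1*. WT minus JNK3 KO responses were -3.04 for *Aqp4*, -1.91 for *Kcnj10*, -1.15 for *Abca8a*, -1.04 for *Dkk3*, -0.43 for *Rlbp1*, 0.60 for *Apoe* and 0.38 for *Clu*. The sh*Pax6* minus JNK3 KO responses were 1.50 for *Clu*, 0.90 for *Apoe*, 0.23 for *Dkk3*, -0.49 for *Aqp4* and -0.81 for *Rlbp1*. With the length trend removed the calls of *Sox9* (-0.46, adjusted p = 0.241) and *Abca8a* (-0.08, adjusted p = 0.83) against sh*Pax6* and of *Abca8a* (-0.32, adjusted p = 0.39) and *Clu* (0.02, adjusted p = 0.868) against JNK3 KO ended. Other fits took the differences of *Abca8a* as far as -2.82 against sh*Pax6* and -3.24 against JNK3 KO.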

How the results depend on the processing

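Of 72 values (9 genes in 8 comparisons) 43 were called, and 24 of these stayed called with the same direction in every fit, fold limits aside. The number of genes called moved by over 1.5 times as follows. With either fold limit (a log2 difference above 1, with an adjusted or an unadjusted p) it was 4 after NMDA in WT, 3 in sh*Pax6* and 0 in JNK3 KO retinas, 2 for sh*Pax6* and 0 for JNK3 KO against WT under PBS, and 5, 4 and 1 for the differences between responses. The spread of the compared groups alone gave 3 after NMDA in sh*Pax6* retinas, quantile scaling 5 for WT against sh*Pax6* responses, length correction 3 for sh*Pax6* against JNK3 KO responses, and longer transcripts (added after the data were seen) 8 after NMDA in JNK3 KO retinas. The single call of JNK3 KO against WT under PBS became 2 with a pseudocount of 0.5 or 1 or the filter on the mean of all libraries, 3 with quantile scaling or longer transcripts, and 0 with no filter, no trend, length correction or the spread of the compared groups alone.

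The replicate numbers did not pair the libraries (correlation of deviations -0.013 in WT, 0.022 in sh*Pax6* and -0.097 in JNK3 KO). A replicate block gave 0 calls for JNK3 KO against WT under PBS (*Car14*, adjusted p = 0.0664) and 3 for sh*Pax6* against JNK3 KO responses (*Aqp4* 0.0570, *Dkk3* 0.0601), and changed no other call. Without 1 library, the genes called numbered 6 to 8 (WT), 5 to 6 (sh*Pax6*) and 3 to 6 (JNK3 KO) after NMDA, 4 to 5 (sh*Pax6*) and 0 to 2 (JNK3 KO) against WT under PBS, and 5 to 7, 6 to 7 and 3 to 5 for the differences between responses in the order above. Member transcripts called numbered 7 to 16, 7 to 17, 2 to 4 and 4 to 8.

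Directions turned after NMDA in WT retinas with TPM (*Rlbp1* -0.19, *Sox9* -0.43, *Car14* -0.30), quantile scaling (*Rlbp1* -0.01, *Apoe* -0.13) and length correction (*Car14* -0.17, *Apoe* -0.20). Under PBS, length correction gave *Dkk3* 0.07 in sh*Pax6* and *Kcnj10* 0.14 in JNK3 KO, and longer transcripts gave *Abca8a* -0.18 in JNK3 KO. For WT against sh*Pax6* responses TPM gave *Rlbp1* -0.14 and *Car14* -0.49, length correction *Car14* -0.20 and longer transcripts *Apoe* 0.11. For WT against JNK3 KO responses length correction gave *Sox9* 0.34 and *Apoe* -0.52, quantile scaling *Apoe* -0.43 and *Clu* -0.67, and TPM *Clu* -0.22. *Rlbp1* after NMDA in sh*Pax6* retinas was 0.04 with longer transcripts and -0.16 to 0.15 without 1 library. Without 1 library, *Kcnj10* in JNK3 KO under PBS was -0.09 to 0.03, and *Car14* -0.18 to 0.24 and -0.38 to 0.04 for the WT response against sh*Pax6* and JNK3 KO. The cause was not tested.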
